A study of Mus musculus with 10 samples.

Results

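Esrrb and 4 other genes of the nuclear receptor superfamily, Esrra, Nr0b1, Nr5a2 and Nr6a1, are described here across all libraries of the study. They were chosen by gene symbol and are 5 of the 31053 genes in the deposited count files. All 5 passed the filter on low counts, which kept 11215 genes.

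The cells were E14 mouse embryonic stem (ES) cells with a stably integrated Esrrb construct that is switched on by doxycycline (DOX), and every group carried this construct. The 96 h DOX group (3 libraries) was plated in N2B27 medium with 2iL and, from the next day, kept for 96 h in N2B27 with DOX and no 2iL. The 96 h no DOX group (3 libraries) was treated in the same way without DOX. The 2iL group (4 libraries) stayed in N2B27 with CHIR99021 at 3 µM, which inhibits GSK3, PD0325901 at 1 µM, which inhibits MEK, and the cytokine LIF. No line without the construct and no 2iL culture with DOX is among these groups, so effects of DOX itself and of the induced gene cannot be told apart. The labels do not say whether the line is 1 clone.

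Nuclear receptors are transcription factors that bind short DNA elements built on the hexamer AGGTCA, and many of them are switched by small lipophilic ligands. The members described here are orphan receptors, so called because they were found before any natural ligand was known. In mouse ES cells Esrrb and Nr5a2 act with the naive pluripotency factors, Nr0b1 binds other receptors and pluripotency factors as a co-regulator, and Nr6a1 (GCNF) represses pluripotency genes during differentiation. Esrra is widely expressed and is known for the control of genes of mitochondrial energy metabolism.

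Libraries are named by group, experiment and number, as in exp1_2 for the second library of experiment 1. They held 1253620 to 4715450 reads in genes, with a median of 3334320. Levels are CPM, reads of a gene relative to all reads in genes of the library, after TMM scaling. The reads come from 3′ ends of polyA RNA, and levels of different genes are not compared. Nothing in the labels says that libraries of a group came from separate cultures, so p-values measure only the spread between these libraries. The 96 h DOX library exp1_2 stood apart: it was the shallowest, its count file carries a later date than all the others, and its summed fibroblast markers reached 1941 CPM against 2.00 to 22.1 CPM in the other libraries. Its Col1a2 level was 1190 CPM. ES cell markers, whose sums were 1557 to 1754 CPM in 96 h DOX, 1141 to 1173 CPM in 96 h no DOX and 1357 to 1444 CPM in 2iL, were detected in every group with none at 0. These sums join markers that moved in opposite directions. Against 2iL, Utf1 and Lin28a were higher and Nanog and Zfp42 lower in both 96 h groups, within each experiment.

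The promoters that hold the hexamer are shown because it is the element Esrrb and related receptors recognise. RefSeq start sites on GRCm38.p6 gave 8 promoters for the 5 members, each running from 250 bases before to 50 bases after the start, and 3 of these 8 held AGGTCA on either strand with no mismatch. Capitals mark the hexamer, written TGACCT where it lies on the strand opposite to the gene. The Nr0b1 window is chrX:86191525-86191824 (plus strand), the Nr5a2 window at its start site 1 is chr1:136960399-136960698 (minus strand), and the Nr6a1 window at its start site 2 is chr2:38784466-38784765 (minus strand).
Nr0b1: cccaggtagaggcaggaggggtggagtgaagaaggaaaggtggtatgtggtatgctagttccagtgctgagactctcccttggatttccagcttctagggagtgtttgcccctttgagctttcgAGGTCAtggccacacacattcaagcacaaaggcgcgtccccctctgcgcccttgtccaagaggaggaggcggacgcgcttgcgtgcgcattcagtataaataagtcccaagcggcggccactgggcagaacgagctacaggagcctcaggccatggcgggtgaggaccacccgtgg
Nr5a2: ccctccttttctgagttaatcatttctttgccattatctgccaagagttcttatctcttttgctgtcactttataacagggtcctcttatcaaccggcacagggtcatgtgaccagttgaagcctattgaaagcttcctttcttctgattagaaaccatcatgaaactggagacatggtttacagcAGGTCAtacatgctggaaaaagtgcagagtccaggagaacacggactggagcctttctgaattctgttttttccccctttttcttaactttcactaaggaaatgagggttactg
Nr6a1: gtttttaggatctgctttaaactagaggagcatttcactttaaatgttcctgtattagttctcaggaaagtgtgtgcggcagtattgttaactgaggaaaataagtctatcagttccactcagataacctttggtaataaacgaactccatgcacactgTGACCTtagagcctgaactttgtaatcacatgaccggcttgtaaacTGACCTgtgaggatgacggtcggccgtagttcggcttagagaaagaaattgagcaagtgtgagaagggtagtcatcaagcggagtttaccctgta
The hexamer began 126 bases upstream of the Nr0b1 start and 64 bases upstream of the Nr5a2 start. In the Nr6a1 window it occurred at 91 and at 45 bases upstream. Neither Esrrb promoter and no Esrra promoter held it. For comparison, 16.3% of 32851 mouse promoters of the same length held AGGTCA, as did 12% of the promoters of all tested genes. With DOX against no DOX the share was 19.5% of promoters of genes called higher (45 of 231) and 13.3% of those called lower (13 of 98). In 96 h no DOX against 2iL it was 12% for genes higher (163 of 1356) and 15.4% for genes lower (158 of 1026). These are counts of promoters, of which a gene can have more than 1, and the shares were not tested. The extended element TCAAGGTCA, which contains the hexamer and is the form preferred by estrogen-related receptors, was in none of the 8 promoters and in 0.423% of all promoters. The tandem element AGGTCAAGGTCA was also in none of the 8.

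The comparison of 96 h DOX with 96 h no DOX asks which genes differed when the construct was induced after 2iL had been removed. A gene is called here when its adjusted p in edgeR's quasi-likelihood test, taken over all tested genes, is below 0.05. Of the 5 members 1 was called, Nr0b1, against 3.10% of all tested genes. Removal of 2iL without DOX moved 4 of the 5, Esrrb, Nr0b1 and Nr5a2 downward and Nr6a1 upward, against 20.4% of all tested genes. Esrrb, Nr5a2 and Nr6a1 were also called between 96 h DOX and 2iL, which makes 3 of 5 against 16.7% of all tested genes. Each of these calls held without 96 h DOX exp1_2. Both 96 h groups share the 2iL libraries as their reference, and the 3 comparisons are therefore not independent of each other.

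**Figure D1:**
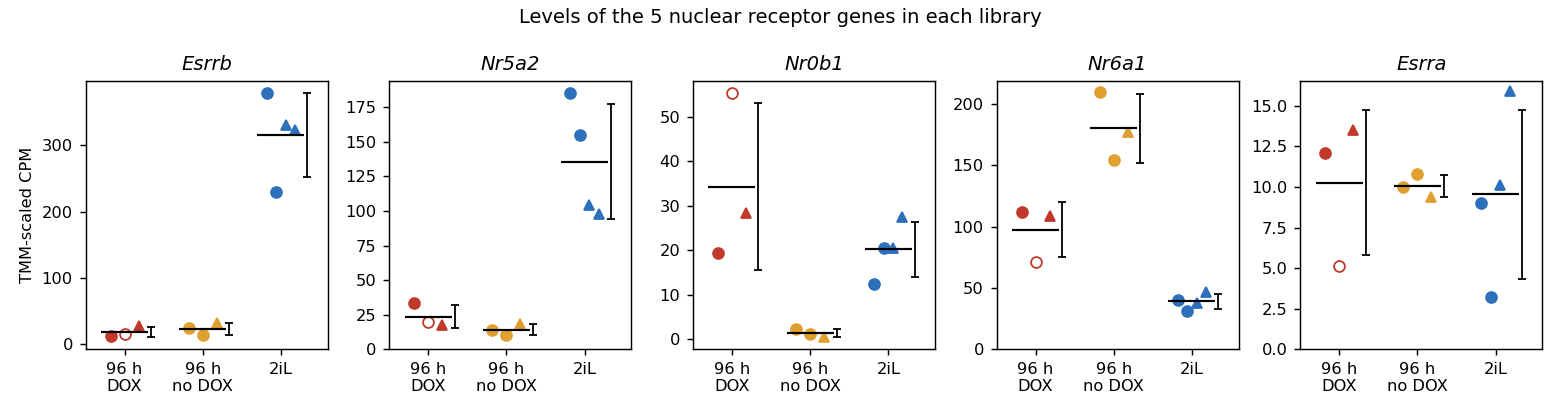
Levels of the 5 receptors in each library, as TMM-scaled CPM on linear axes, with groups in the order 96 h DOX, 96 h no DOX and 2iL; circles are experiment 1, triangles experiment 2, the open circle is 96 h DOX exp1_2, lines are means and bars SDs. Esrrb and Nr5a2 are high in 2iL only, Nr0b1 is low in 96 h no DOX only, Nr6a1 is highest in 96 h no DOX and Esrra overlaps in all groups.

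Esrrb, the receptor encoded by the construct, lies on chromosome 12 (GRCm38, 86361117 to 86521628, plus strand) with no overlapping annotated gene. Its level was 12.8 CPM (exp1_1), 14.7 CPM (exp1_2) and 27.0 CPM (exp2_1) in 96 h DOX. It was 23.8 CPM (exp1_1), 13.6 CPM (exp1_2) and 32.0 CPM (exp2_2) in 96 h no DOX. It was 378, 229, 331 and 323 CPM in the 2iL libraries. The ranges of the 96 h groups overlap, and every 2iL library is far above both. In both 96 h groups the experiment 2 library was the highest. The group means were 18.2 ± 7.71 CPM in 96 h DOX (SD, n = 3), 5.77% of the 2iL mean, and 23.1 ± 9.24 CPM in 96 h no DOX (SD, n = 3), 7.34% of the 2iL mean of 315 ± 62.7 CPM (SD, n = 4).

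The difference in Esrrb between 96 h DOX and 96 h no DOX was -0.32 on the log2 scale, with a 95% interval of -1.01 to 0.38 and an adjusted p of 0.704 by edgeR's quasi-likelihood test. Induction was therefore not detectable in these reads, and the upper end of the interval is a rise of 0.38 on the log2 scale. Reads at the 3′ end of Esrrb count the construct only if it carries that 3′ end, which the labels do not state, so this level does not test whether the construct was on. Within experiment 1 the fitted difference was -0.45 and within experiment 2 it was -0.24. Leaving out single libraries gave -0.74 to -0.011. Against 2iL, Esrrb fell by 3.78 ± 0.33 (SE) on the log2 scale without DOX (adjusted p = 7.58e-08, edgeR), with -4.03 within experiment 1 and -3.35 within experiment 2. With DOX it fell by 4.10 ± 0.34 (SE; adjusted p = 1.14e-07, edgeR). In bulk RNA, fewer cells that express a gene and less of its RNA per cell cannot be told apart.

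Nr5a2, also known as LRH-1, is a receptor that binds DNA as a monomer and regulates Pou5f1 in early mouse embryos and ES cells. It lies on chromosome 1 (136842571 to 136960448, minus strand). Its level was 33.5, 19.9 and 17.8 CPM in 96 h DOX exp1_1, exp1_2 and exp2_1. It was 13.8, 10.4 and 18.2 CPM in 96 h no DOX exp1_1, exp1_2 and exp2_2, and 185, 155, 104 and 98.0 CPM in 2iL. The 96 h ranges overlap only through experiment 2, where the no DOX library was slightly above the DOX library. All 2iL libraries are above all 96 h libraries. The 2iL libraries also differed by experiment, with means of 101 CPM in experiment 2 and 170 CPM in experiment 1.

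The mean of Nr5a2 was 23.7 ± 8.52 CPM in 96 h DOX (SD, n = 3), 14.1 ± 3.94 CPM in 96 h no DOX (SD, n = 3) and 136 ± 41.7 CPM in 2iL (SD, n = 4). With DOX against no DOX the log2 difference was 0.78 ± 0.33 (SE), with an adjusted p of 0.257 by edgeR's quasi-likelihood test, so it did not pass the threshold. It was 1.19 within experiment 1 and -0.031 within experiment 2, and the difference between these values was -1.22 ± 0.60 (SE; adjusted p = 0.901, edgeR). Nr5a2 fell by 3.27 ± 0.33 (SE) on the log2 scale in 96 h no DOX against 2iL (adjusted p = 3.86e-07, edgeR). It fell by 2.49 ± 0.32 (SE) in 96 h DOX against 2iL (adjusted p = 1.32e-05, edgeR). The fall without DOX was -3.82 within experiment 1 and -2.47 within experiment 2, and the difference between these values was 1.35 ± 0.53 (SE), with a 95% interval of 0.24 to 2.46, an unadjusted p of 0.0203 and an adjusted p of 0.577 (edgeR).

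Nr0b1, or Dax1, is an atypical receptor that lacks the usual DNA-binding domain, and in mouse ES cells it is a known target of Esrrb and of Nr5a2. It lies on the X chromosome (86191764 to 86195947, plus strand). Its level was 19.2, 55.3 and 28.3 CPM in 96 h DOX exp1_1, exp1_2 and exp2_1. It was 2.35, 1.08 and 0.588 CPM in 96 h no DOX exp1_1, exp1_2 and exp2_2, which are 8, 5 and 2 reads, and 12.3, 20.5, 20.6 and 27.4 CPM in 2iL. All 96 h DOX libraries are above all 96 h no DOX libraries, and the 96 h DOX and 2iL ranges overlap. The highest DOX value comes from exp1_2, the library that stood apart.

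Mean Nr0b1 was 34.3 ± 18.7 CPM in 96 h DOX (SD, n = 3), 1.34 ± 0.909 CPM in 96 h no DOX (SD, n = 3) and 20.2 ± 6.15 CPM in 2iL (SD, n = 4). The DOX mean was 170% of the 2iL mean, or 118% without exp1_2, and the no DOX mean was 6.63% of it. The log2 difference of 4.62 with DOX against no DOX (adjusted p = 3.66e-05, edgeR) was number 40 of 11215 genes by size. Without exp1_2 it was 4.13 (adjusted p = 5.12e-05, edgeR). Nr0b1 passed the threshold in each of the 19 alternative analyses, with values of 4.13 to 5.22.

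Within experiment 1 the log2 difference of Nr0b1 was 4.42. Experiment 2 compared 92 reads with DOX and 2 reads without, a ratio of 48.1 with an exact 95% counting interval of 12.9 to 403. This interval covers counting error only, since reads without molecular identifiers are not independent molecules. Against 2iL, Nr0b1 fell by 3.89 ± 0.53 (SE) on the log2 scale in 96 h no DOX (adjusted p = 1.59e-05, edgeR). This was -3.28 within experiment 1, while in experiment 2 there were 2 reads in 96 h no DOX and 141 in 2iL, a level 40.3-fold lower with a counting interval of 10.9 to 336. In 96 h DOX it differed from 2iL by 0.73, with a 95% interval of -0.11 to 1.57 and an adjusted p of 0.236 (edgeR), so no difference was shown and a rise of up to 1.57 is within the interval. Without exp1_2 this difference was 0.23 (adjusted p = 0.803, edgeR).

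Markers of extraembryonic endoderm moved with Nr0b1 between the 96 h groups. Their sum was 452 to 633 CPM in 96 h DOX, 98.1 to 116 CPM in 96 h no DOX and 30.7 to 61.7 CPM in 2iL, over 10 genes of which Sox7 was at 0 reads in 96 h no DOX and in 2iL. Of the 9 that were tested, 7 were higher and 0 lower with DOX than without, against 2.16% and 0.945% of all tested genes. A marker that passed the filter only through 96 h DOX could be called only higher, so this count is a description. Their part in the Nr0b1 result was not tested.

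Nr6a1 is a receptor that binds direct repeats of the hexamer and recruits repressors to Pou5f1 as mouse ES cells differentiate. It lies on chromosome 2 (38723370 to 38927688, minus strand), and 7 annotated genes overlap it. Its antisense neighbour Nr6a1os had 0 reads in 96 h DOX, 0 in 96 h no DOX and 1 in 2iL. Nr6a1 was at 112, 71.5 and 108 CPM in 96 h DOX exp1_1, exp1_2 and exp2_1. It was at 210, 154 and 177 CPM in 96 h no DOX exp1_1, exp1_2 and exp2_2, and at 40.0, 31.6, 38.1 and 46.6 CPM in 2iL. The groups are ordered with no overlap: every 96 h no DOX library is above every 96 h DOX library, and these are above every 2iL library. The lowest DOX value is that of exp1_2.

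Mean Nr6a1 was 97.4 ± 22.5 CPM in 96 h DOX (SD, n = 3) and 180 ± 28.0 CPM in 96 h no DOX (SD, n = 3), which are 249% and 461% of the 2iL mean of 39.1 ± 6.17 CPM (SD, n = 4). It rose by 2.21 ± 0.23 (SE) on the log2 scale in 96 h no DOX against 2iL (adjusted p = 7.22e-07, edgeR), with 2.34 within experiment 1 and 2.06 within experiment 2. It rose by 1.33 ± 0.23 (SE) in 96 h DOX against 2iL (adjusted p = 0.000399, edgeR). The difference between 96 h DOX and 96 h no DOX was -0.88, with a 95% interval of -1.39 to -0.37 and an adjusted p of 0.0565 (edgeR), so it missed the threshold. The same difference passed with DESeq2 (-0.87, adjusted p = 0.0187), and it was -0.97 within experiment 1 and -0.70 within experiment 2. Of the 5 members, Nr0b1 and Nr6a1 had groups that did not overlap in this comparison, against 18.7% of all tested genes in either direction (9.98% higher and 8.74% lower). In 96 h no DOX against 2iL 4 of 5 did not overlap, against 30.9% of all tested genes (16.1% higher and 14.8% lower), and in 96 h DOX against 2iL 3 of 5, against 27.6% (14.3% higher and 13.3% lower).

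The summed level of neural progenitor markers moved with Nr6a1. Their sum was 194 to 265 CPM in 96 h DOX, 633 to 686 CPM in 96 h no DOX and 64.8 to 74.3 CPM in 2iL, over 7 genes with none at 0. Of the 6 that were tested, 0 were higher and 2 lower with DOX than without, against 2.16% and 0.945% of all tested genes. Sox3, Nes and Sox11 were lower with DOX within both experiments. Single markers differed: within experiments 1 and 2 the log2 differences were 0.053 and 0.51 for Sox1, -1.15 and 1.53 for Pax6, and -1.58 and 1.18 for Hes5. Their part in the Nr6a1 result was not tested.

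Esrra, estrogen-related receptor alpha, belongs to the same subfamily as Esrrb. It lies on chromosome 19 (6910977 to 6921813, minus strand). Its level was 12.1, 5.16 and 13.5 CPM in 96 h DOX exp1_1, exp1_2 and exp2_1. It was 9.98, 10.8 and 9.40 CPM in 96 h no DOX exp1_1, exp1_2 and exp2_2, and 8.99, 3.22, 10.1 and 15.9 CPM in 2iL. All ranges overlap, and the values of 96 h DOX exp1_2 and 2iL exp1_2 rest on 7 and 11 reads. The means were 10.3 ± 4.48 CPM in 96 h DOX (SD, n = 3), 10.1 ± 0.693 CPM in 96 h no DOX (SD, n = 3) and 9.56 ± 5.20 CPM in 2iL (SD, n = 4).

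No difference in Esrra was called. With DOX against no DOX the log2 difference was 0.075, with a 95% interval of -0.99 to 1.14 (adjusted p = 0.967, edgeR). In 96 h no DOX against 2iL it was 0.084, with an interval of -0.92 to 1.08, and in 96 h DOX against 2iL it was 0.16, with an interval of -0.85 to 1.17. Changes of up to about 1 on the log2 scale in either direction are within these intervals. Within experiments 1 and 2 the values were -0.18 and 0.52 with DOX against no DOX, 0.78 and -0.46 for 96 h no DOX against 2iL, and 0.59 and 0.060 for 96 h DOX against 2iL. The 3′ end of Esrra overlaps 73 bases of Trmt112 on the opposite strand. The labels do not give the strand setting of the counting, so reads from this overlap cannot be assigned. Trmt112 was at 52.3, 129 and 49.2 CPM in 96 h DOX, with the high value in exp1_2, and averaged 55.7 ± 6.08 CPM in 96 h no DOX (SD, n = 3) and 49.0 ± 5.72 CPM in 2iL (SD, n = 4).

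**Figure D2:**
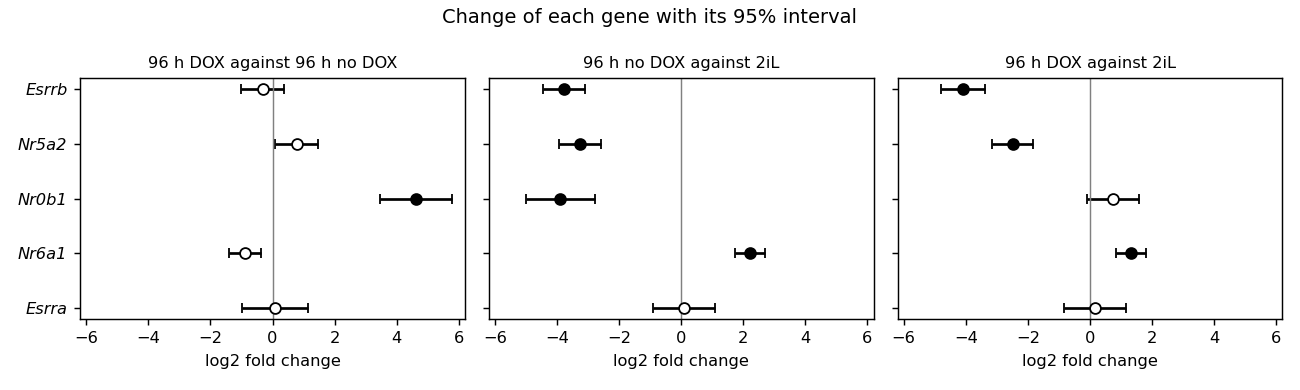
Log2 fold changes of the 5 receptors in the 3 comparisons, with 95% intervals; filled points are called at an adjusted p below 0.05 and open points are not. Nr0b1 at 4.62 is the only member called with DOX against no DOX, while Esrrb, Nr0b1 and Nr5a2 fall and Nr6a1 rises in 96 h no DOX against 2iL.

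Of 44 further nuclear receptors of the mouse, 19 passed the filter and 25 did not, of which 4 had 0 reads in all libraries. With DOX against no DOX 1 of the 19 was called higher and 0 lower, against 2.16% and 0.945% of all tested genes, and their median log2 difference was 0.032 against -0.017 over all tested genes. In 96 h no DOX against 2iL 5 were higher and 0 lower, against 11.5% and 8.90% of all tested genes, with a median of 0.35 against 0.0039. In 96 h DOX against 2iL 5 were higher and 0 lower, against 9.84% and 6.83% of all tested genes, with a median of 0.77 against 0.019. Among those called, Rxrg (in 96 h no DOX) and Nr2c1 (in both 96 h groups) passed the filter only through 96 h libraries. They had few reads in 2iL and could be called only higher, which limits what these counts show.

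The receptor that was higher with DOX was Rara, a retinoic acid receptor. It was at 26.4, 30.2 and 45.8 CPM in 96 h DOX, at 8.81, 6.04 and 12.3 CPM in 96 h no DOX, and at 20.3, 17.3, 14.1 and 11.5 CPM in 2iL. The DOX libraries are above all others, and the 96 h no DOX and 2iL ranges overlap. The log2 difference was 1.92 ± 0.39 (SE) with DOX against no DOX (adjusted p = 0.00687, edgeR) and remained called without each single library, with values of 1.65 to 2.21. It was 1.95 in experiment 1 alone (adjusted p = 0.0697, edgeR). Against 2iL, Rara in 96 h DOX was higher by 1.11 (adjusted p = 0.0310, edgeR), and this call was lost without each of the 2iL libraries exp1_2, exp2_1 and exp2_2 and without 96 h DOX exp2_1, where it was 0.84 (adjusted p = 0.168, edgeR).

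Rarg, another retinoic acid receptor, was high in both 96 h groups. It was at 40.6, 107 and 24.0 CPM in 96 h DOX, at 38.5, 62.3 and 71.1 CPM in 96 h no DOX, and at 14.0, 20.2, 7.37 and 6.65 CPM in 2iL. Every 96 h library is above every 2iL library, and the 96 h groups overlap. Rarg was higher by 2.19 ± 0.44 (SE) on the log2 scale in 96 h DOX (adjusted p = 0.0015, edgeR) and by 2.24 ± 0.43 (SE) in 96 h no DOX (adjusted p = 0.000745, edgeR) than in 2iL. The highest Rarg value was in 96 h DOX exp1_2, and without that library the difference of 96 h DOX from 2iL was 1.41, still called.

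Nr2f6, an orphan receptor of the COUP-TF family, averaged 63.7 ± 11.6 CPM in 96 h DOX (SD, n = 3), 62.6 ± 20.7 CPM in 96 h no DOX (SD, n = 3) and 31.2 ± 5.82 CPM in 2iL (SD, n = 4). It was called higher than in 2iL with DOX (1.04, adjusted p = 0.0115, edgeR) and without DOX (1.00, adjusted p = 0.0104, edgeR). The call without DOX was lost without 96 h no DOX exp1_1 (adjusted p = 0.0522, edgeR) or exp1_2 (adjusted p = 0.0724, edgeR). That with DOX was lost in experiment 1 alone (0.93, adjusted p = 0.133, edgeR).

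Rxrg, a retinoid X receptor, had 14, 1 and 16 reads in 96 h DOX, 55, 25 and 2 reads in 96 h no DOX and 0, 2, 0 and 2 reads in 2iL. Its rise of 4.35 ± 1.09 (SE) in 96 h no DOX (adjusted p = 0.00622, edgeR) rested on exp1_1: without that library the value was 3.08 (adjusted p = 0.115, edgeR). Nr2c1, also known as TR2, had 16, 8 and 21 reads in 96 h DOX, 16, 23 and 9 reads in 96 h no DOX and 1, 4, 4 and 0 reads in 2iL. It was called higher than in 2iL with DOX (2.85, adjusted p = 0.0225, edgeR) and without DOX (2.48, adjusted p = 0.0376, edgeR), and of 10 analyses that left out 1 library the call with DOX held in 6 and that without DOX in 4. The call with DOX was lost without 96 h DOX exp1_2 (2.79, adjusted p = 0.0556, edgeR). Over these 10 analyses the number of the 19 receptors called was 1 in each for DOX against no DOX, 2 to 6 for 96 h no DOX against 2iL and 3 to 6 for 96 h DOX against 2iL. Without 96 h DOX exp1_2 the numbers were 1, 6 and 5, and 1 of the 6 was lower than in 2iL. The lowest, 2, was reached without 96 h no DOX exp1_1.

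Nr2f2 and Nr3c1 were not called in any comparison and had their highest value in 96 h DOX exp1_2. Nr2f2, or COUP-TFII, was at 3.56, 73.7 and 3.995 CPM in 96 h DOX, at 4.99, 4.10 and 3.53 CPM in 96 h no DOX, and at 6.33, 4.68, 19.96 and 28.5 CPM in 2iL. The glucocorticoid receptor Nr3c1 was at 7.60, 47.9 and 3.69 CPM in 96 h DOX, at 12.9, 11.9 and 12.0 CPM in 96 h no DOX, and at 5.66, 8.19, 4.3 and 4.07 CPM in 2iL. In both genes the other DOX libraries lie below 8 CPM, and exp1_2 is also the library with the high fibroblast markers, whose part in these values was not tested.

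Esrrg, the remaining member of the estrogen-related receptor subfamily, had 0 reads in 96 h DOX, 6 reads in 96 h no DOX and 0 reads in 2iL, and Hnf4a had 4, 0 and 5 reads in these groups; neither was tested. Rxra, a common partner of other receptors, averaged 27.7 ± 8.86 CPM in 96 h DOX, 35.2 ± 7.87 CPM in 96 h no DOX (SD, n = 3 each) and 30.9 ± 9.06 CPM in 2iL (SD, n = 4). Nr2f1 and Nr1d2 were also not called in any comparison. Nr2f1 averaged 3.02 CPM in 96 h DOX, 3.26 CPM in 96 h no DOX and 6.90 CPM in 2iL, and Nr1d2 averaged 16.5 CPM in 96 h DOX, 19.7 CPM in 96 h no DOX and 29.01 CPM in 2iL.

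**Figure D3:**
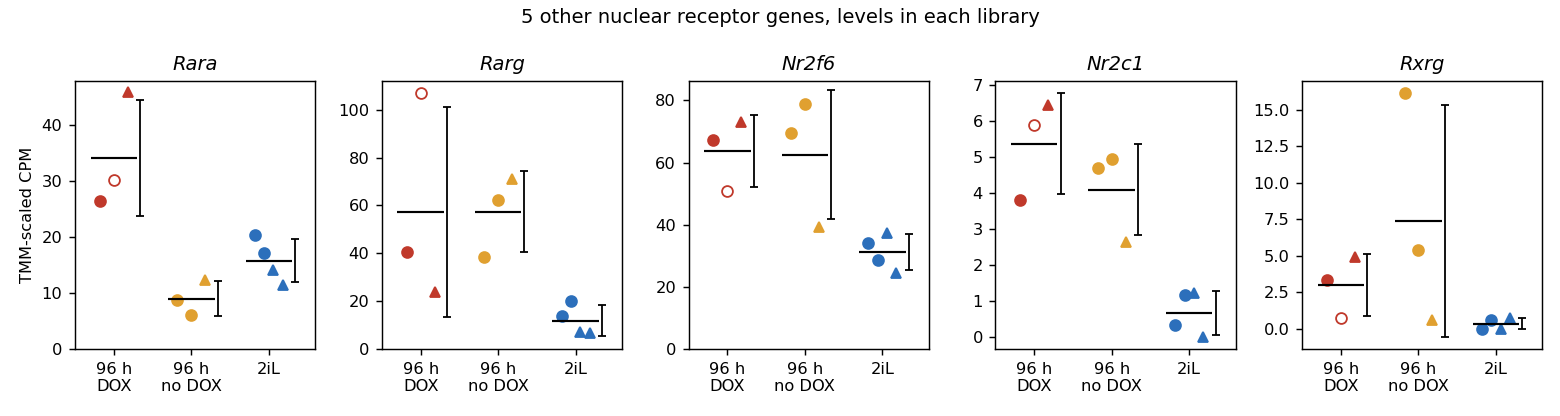
TMM-scaled CPM per library, on linear axes, of 5 other nuclear receptors that were called in at least 1 comparison, with groups in the order 96 h DOX, 96 h no DOX and 2iL; circles are experiment 1, triangles experiment 2, the open circle is 96 h DOX exp1_2, lines are means and bars SDs. Rara is highest in 96 h DOX, at 26.4 to 45.8 CPM, and the others are higher in one or both 96 h groups than in 2iL.

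Receptors act through coactivators and corepressors. Of 14 coactivators 13 were tested, with 1 higher and 0 lower with DOX than without, 0 higher and 2 lower in 96 h no DOX against 2iL, and 1 higher and 2 lower in 96 h DOX against 2iL. Over all tested genes the shares called higher and lower were 2.16% and 0.945%, 11.5% and 8.90%, and 9.84% and 6.83% in these comparisons, so these counts of 13 are near the background. None of the 9 corepressors was called in any comparison by edgeR or by DESeq2, and the number with an unadjusted p below 0.05 in edgeR was 0 with DOX against no DOX, 1 (Nrip1) in 96 h no DOX against 2iL and 1 (Tbl1xr1) in 96 h DOX against 2iL. Their median log2 differences were 0.29, -0.16 and -0.083 in these 3 comparisons, those of the coactivators were -0.051, -0.084 and -0.093, and those of all tested genes -0.017, 0.0039 and 0.019.

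Ncoa3, a coactivator that binds Esrrb in mouse ES cells, was at 67.3, 58.9 and 62.7 CPM in 96 h DOX, at 26.4, 44.0 and 25.0 CPM in 96 h no DOX, and at 60.6, 56.4, 57.7 and 50.3 CPM in 2iL. All 96 h no DOX libraries are below all others, and the DOX and 2iL ranges overlap. The log2 difference was 0.98 ± 0.27 (SE) with DOX against no DOX (adjusted p = 0.0498, edgeR) and -0.82 ± 0.25 (SE) in 96 h no DOX against 2iL (adjusted p = 0.0250, edgeR). The first call was kept in 1 of 10 analyses that left out a library, where the values were 0.84 to 1.30, and the second in 6 of 10. The acetyltransferase Kat2b was also lower in 96 h no DOX than in 2iL (14.2 ± 1.57 CPM, SD, n = 3, against 30.1 ± 6.85 CPM, SD, n = 4; log2 difference -1.08, adjusted p = 0.0186, edgeR), a call lost without 96 h no DOX exp1_2 (adjusted p = 0.0710, edgeR) or exp2_2 (adjusted p = 0.0528, edgeR), without 2iL exp2_1 (adjusted p = 0.0761, edgeR) and in experiment 1 alone (adjusted p = 0.287, edgeR). In 96 h DOX against 2iL, Ncoa6 (-0.97) and Pprc1 (-1.14) were lower and the methyltransferase Carm1 was higher (1.1). The Carm1 value was 0.43 without 96 h DOX exp1_2 (adjusted p = 0.383, edgeR), where it stood at 101 CPM. Without that library 0, 2 and 2 coactivators were called in the 3 comparisons. None of the 3 calls against 2iL held without 2iL exp1_2.

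The 14 pluripotency genes that Esrrb binds or controls in ES cells were all tested. With DOX against no DOX 7 were higher and 0 lower, with a median log2 difference of 1.28, against 2.16% and 0.945% of all tested genes and their median of -0.017. In 96 h no DOX against 2iL 0 were higher and 13 lower, with a median of -3.36, against 11.5% and 8.90% of all tested genes and a median of 0.0039. In 96 h DOX against 2iL 0 were higher and 10 lower, with a median of -1.43, against 9.84% and 6.83% and a median of 0.019. The numbers called were also 7, 13 and 10 without 96 h DOX exp1_2. Not called with DOX against no DOX were Klf2, Nanog, Fgf4, Sox2, Pou5f1, Prdm14 and Dppa3. Of these, Nanog, Fgf4 and Sox2 were higher with DOX within both experiments. Dppa3 (-1.33 and -0.51) and Pou5f1 (-0.058 and -0.77) were lower within both, and Klf2 and Prdm14 differed in sign between experiments. The most changed of those called higher with DOX was Tet2, an enzyme that oxidises 5-methylcytosine. It was at 14.7, 34.6 and 27.7 CPM in 96 h DOX, at 2.94, 2.80 and 2.06 CPM in 96 h no DOX, and at 34.6, 39.2, 12.0 and 27.0 CPM in 2iL. Tet2 levels in 96 h DOX overlap those in 2iL, as do those of Nr0b1, and the log2 difference with DOX against no DOX was 3.25 ± 0.49 (SE; adjusted p = 0.000511, edgeR). Tcl1, a coactivator of Akt, followed another order: it averaged 46.5 ± 19.4 CPM in 96 h DOX (SD, n = 3), 12.3 ± 2.11 CPM in 96 h no DOX (SD, n = 3) and 316 ± 98.8 CPM in 2iL (SD, n = 4). It was higher by 1.94 ± 0.33 (SE) with DOX than without (adjusted p = 0.00147, edgeR).

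Of 20 mitochondrial and fuel genes known as targets of Esrra, 18 were tested. With DOX against no DOX 1 was higher and 0 lower (median 0.34). In 96 h no DOX against 2iL 0 were higher and 3 lower (median -0.32), and in 96 h DOX against 2iL 1 was higher and 0 lower (median -0.026). The shares of all tested genes called higher and lower were 2.16% and 0.945%, 11.5% and 8.90%, and 9.84% and 6.83%, with medians of -0.017, 0.0039 and 0.019, so these counts of 18 are near the background. Without 96 h DOX exp1_2 the numbers called were 0, 3 and 1, the last of them lower. Acadm, a dehydrogenase of fatty acid oxidation, averaged 59.1 ± 14.5 CPM in 96 h DOX (SD, n = 3), 33.1 ± 5.92 CPM in 96 h no DOX (SD, n = 3) and 85.7 ± 6.14 CPM in 2iL (SD, n = 4). It fell by 1.37 on the log2 scale in 96 h no DOX against 2iL (adjusted p = 0.000322, edgeR), and the respiratory chain subunits Uqcrc1 and Sdha fell by 0.98 and 0.78. The Uqcrc1 call was lost without 96 h no DOX exp2_2 (-0.74, adjusted p = 0.0515, edgeR) and in experiment 1 alone (-0.60, adjusted p = 0.312, edgeR), and the Sdha call in experiment 1 alone (adjusted p = 0.143, edgeR). The gene higher with DOX was Idh3a, a subunit of isocitrate dehydrogenase, at 46.8, 133 and 59.3 CPM in 96 h DOX against 39.1, 31.7 and 24.4 CPM in 96 h no DOX. Its difference of 1.31 (adjusted p = 0.0377, edgeR) was 0.74 without 96 h DOX exp1_2 (adjusted p = 0.263, edgeR), and without that library the difference from 2iL lost its call too (0.62, adjusted p = 0.154, edgeR). The Idh3a call with DOX against no DOX was kept in 3 of 10 analyses that left out a library.

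Of 8 genes known to be repressed by Nr6a1, 6 were tested. In 96 h no DOX against 2iL 0 were higher and 5 lower, with a median of -1.66, against 11.5% and 8.90% of all tested genes and a median of 0.0039. The tested gene not called was Pou5f1, at -0.034 within experiment 1 and 0.36 within experiment 2. The Dppa3 call was kept in 6 of 10 analyses that left out a library and was lost in experiment 1 alone (adjusted p = 0.457, edgeR). In 96 h DOX against 2iL 0 were higher and 3 lower, with a median of -0.73, against 9.84% and 6.83% and a median of 0.019. With DOX against no DOX 1 was higher and 0 lower, with a median of 0.62, against 2.16% and 0.945% and a median of -0.017. The numbers called in each comparison were the same without 96 h DOX exp1_2. The one higher with DOX was Tdgf1, a Nodal co-receptor, at 83.9, 181 and 150 CPM in 96 h DOX, at 27.3, 17.3 and 28.8 CPM in 96 h no DOX, and at 162, 165, 145 and 152 CPM in 2iL. Its level in 96 h DOX spans that in 2iL and lies above all 96 h no DOX libraries (log2 difference 2.497 ± 0.29, SE; adjusted p = 3.26e-05, edgeR). Pou5f1, Sox2, Fgf4, Dppa3 and Nanog are on both this list and that of Esrrb, so the counts of these lists are not independent. Nanog averaged 32.8 ± 16.5 CPM in 96 h DOX (SD, n = 3), 18.4 ± 4.17 CPM in 96 h no DOX (SD, n = 3) and 220 ± 24.3 CPM in 2iL (SD, n = 4). It differed by 0.85 with DOX against no DOX (adjusted p = 0.165, edgeR).

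The genes whose pattern was most like that of each member were found by the root mean square difference of centred log2(CPM + 1) over the 10 libraries, among 8529 genes with a mean of at least 10 CPM in some group. These are descriptions over libraries that share their groups and depth, and the genes were picked for these same values, so no test is given for them. Osm, a cytokine of the LIF family, was nearest to Esrrb (0.424, against a median of 1.99 over all candidates), followed by Alpl, Il34, Rab11fip5 and Cttnbp2. Osm averaged 0.205 ± 0.355 CPM in 96 h DOX (SD, n = 3), 0.170 ± 0.152 CPM in 96 h no DOX (SD, n = 3) and 17.0 ± 6.50 CPM in 2iL (SD, n = 4). It passed the level of 10 CPM only through 2iL, and the added 1 limits its fall on this scale: the fitted log2 difference in 96 h no DOX against 2iL was -6.33 for Osm and -3.78 for Esrrb. Il34 and Cttnbp2 also passed that level only through 2iL. Among the genes named below for other members, so did Id4, while Pcdh19 passed only through 96 h DOX and Arhgef16 and Rnf157 only through 96 h no DOX. Alpl, alkaline phosphatase, was at 28.6 ± 17.5 CPM in 96 h DOX (SD, n = 3), 33.0 ± 12.2 CPM in 96 h no DOX (SD, n = 3) and 237 ± 73.5 CPM in 2iL (SD, n = 4).

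Nearest to Nr0b1 were Klf5 (0.604, against a median of 1.76), Pcdh19, Pcsk6, Mme and Smad7 (0.656). Smad7, an inhibitor of TGF-beta signalling, averaged 30.1 ± 11.01 CPM in 96 h DOX (SD, n = 3), 2.11 ± 0.669 CPM in 96 h no DOX (SD, n = 3) and 41.6 ± 8.99 CPM in 2iL (SD, n = 4). Mme, a membrane peptidase, averaged 46.7 ± 18.0 CPM in 96 h DOX (SD, n = 3), 2.53 ± 2.23 CPM in 96 h no DOX (SD, n = 3) and 47.8 ± 4.72 CPM in 2iL (SD, n = 4).

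Nearest to Nr5a2 were Hap1 (0.427, against a median of 1.48), Id4, Pdgfa, Bcl3 and Ak4 (0.451). Pdgfa, a growth factor, averaged 50.2 ± 13.8 CPM in 96 h DOX (SD, n = 3), 30.01 ± 6.02 CPM in 96 h no DOX (SD, n = 3) and 277 ± 26.3 CPM in 2iL (SD, n = 4).

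Nearest to Nr6a1 were Marcks (0.209, against a median of 1.04), Armcx2, Lin28a, Arhgef16 and Rnf157 (0.305). Lin28a, an RNA-binding protein that blocks let-7 processing, averaged 241 ± 41.4 CPM in 96 h DOX (SD, n = 3), 446 ± 53.8 CPM in 96 h no DOX (SD, n = 3) and 91.2 ± 10.8 CPM in 2iL (SD, n = 4).

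For Esrra the nearest were Dhrs13 (0.308, against a median of 0.729), Psmb2, Znrf2, Rxra and Nepro. Among the members themselves, the smallest difference was between Esrrb and Nr5a2 (0.856) and the largest between Esrrb and Nr6a1 (2.80).

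**Figure D4:**
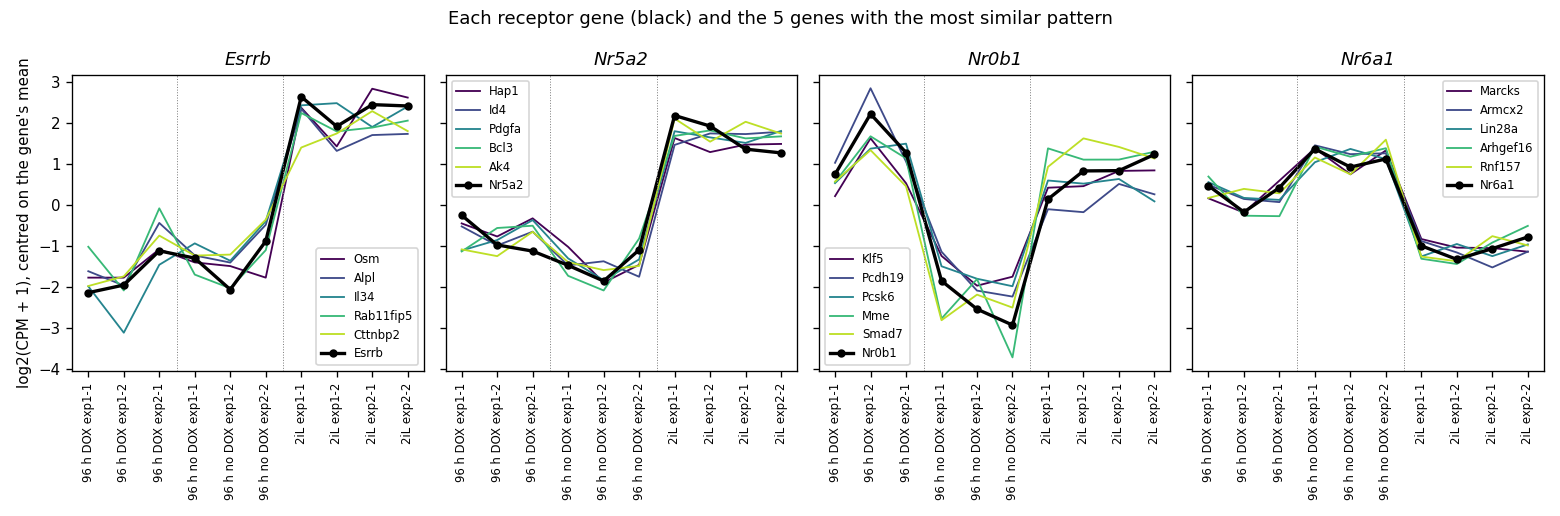
Centred log2(CPM + 1) in each of the 10 libraries for Esrrb, Nr5a2, Nr0b1 and Nr6a1 (black) and the 5 genes nearest to each (coloured lines), in the group order 96 h DOX, 96 h no DOX and 2iL. Genes near Esrrb are low in both 96 h groups, those near Nr0b1 are low in 96 h no DOX only, and those near Nr6a1 are highest in 96 h no DOX.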

How the data were processed

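Read counts per gene, deposited by the authors for 10 libraries of 3′ ends of polyA RNA, were used for every test. Per the submitters' processing notes the tools were bcl2fastq, STAR 2.6.0a and HTSeq, with build mm10. These notes name no annotation release or strand setting. The deposited CPM table was used as a check: whole reads recovered from it (within 0.01 of a whole number for 100% of values) equalled the counts in 310530 of 310530 entries and gave the same 348, 2289 and 1870 called genes. HTSeq summary lines, 62.7% to 68.4% of reads, were left out. Symbols matched 30934 of 31053 gene IDs, and gene positions are from GENCODE vM21.

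Genes were filtered with filterByExpr (minimum count 10) and scaled by TMM, and a quasi-likelihood model with 1 mean per group and no covariate was fitted to all 10 libraries (edgeR 4.0.16, R 4.3.3). P-values were adjusted by Benjamini-Hochberg over 11215 genes. A model of group by experiment gave the values within experiments. The alternatives were no filter or a minimum count of 30, RLE scaling, DESeq2 1.42.0, only the compared groups, each library left out, a replicate block with the experiment or with experiment and library number, experiment 1 alone, and the recovered reads, which were added after seeing the data, as were the list counts without 96 h DOX exp1_2 and under the other settings. The members and lists were chosen with earlier results of these data known. Named genes are the members, every called receptor, 10 fixed receptors and cofactors (Hnf4a, Rarg, Rxra, Nr2f1, Nr2f2, Nr3c1, Nr1d2, Esrrg, Ppargc1a, Ncoa3), up to 3 called genes per list, direction and comparison, and the 5 nearest genes per member; the text describes part of them, and 1 gene counted among the called receptors is not reported here. Ppargc1a, a coactivator of Esrra, was not tested, with 1 read in 96 h DOX, 8 in 96 h no DOX and 2 in 2iL. Summed markers are TMM-scaled CPM. The trophoblast list summed to 61.1 to 99.3 CPM in 96 h DOX, 80.8 to 114 CPM in 96 h no DOX and 110 to 140 CPM in 2iL. The analysis was tested on simulated data.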

Additional observations from a re-analysis of the deposited data

How the results depend on the processing

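Esrrb, Nr0b1, Nr5a2 and Nr6a1 kept their direction in each of 19 alternatives and their side of the threshold in all but 3 cases. These were Nr6a1 with DOX against no DOX, called without a filter (-0.89, adjusted p = 0.0403), with a stricter filter (-0.87, adjusted p = 0.0483) and with DESeq2 (-0.87, adjusted p = 0.0187), and not in any of the 10 analyses that left out a library (-0.98 to -0.71). The sign of Esrra was not fixed: with DOX against no DOX it was -0.14 to 0.34 over libraries left out (negative without 96 h DOX exp1_1 or exp2_1), -0.080 with a replicate block by experiment and number, and -0.18 in experiment 1 alone. It was -0.23 to 0.44 in 96 h no DOX against 2iL and -0.16 to 0.53 in 96 h DOX against 2iL over libraries left out, negative without 2iL exp1_2 in both and, with DOX, also without 96 h DOX exp2_1. The cause was not tested.

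The number of genes called with DOX against no DOX was 564 without a filter, 212 with only the compared groups, 159 with the replicate block by experiment and number, 108 in experiment 1 alone and 161 to 358 over libraries left out, with 161 when 96 h no DOX exp1_1 was left out, 181 when exp2_2 of that group was and 260 when 96 h DOX exp1_2 was. In experiment 1 alone it was 1226 for 96 h no DOX against 2iL (1779 to 2718 over libraries left out) and 926 for 96 h DOX against 2iL (1408 to 1916). Equal labels were not shown to pair the libraries: deviations from group means correlated at -0.101 to 0.227 with equal labels and at -0.194 to 0.148 with unequal labels. With so few libraries per group these values cannot exclude pairing. With the replicate block by experiment and number, Rara lost its call with DOX against no DOX (1.86, adjusted p = 0.0652). Depth limits Esrra, Rxrg, Nr2c1 and Nr0b1, with 11 or fewer reads in some libraries. Other genes at a few CPM in some libraries, such as Tet2 in 96 h no DOX, are limited in the same way.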
